A study of Mus musculus with 2 samples.

Results

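The mRNAs of the 10 subunits of Polycomb repressive complex 2 (PRC2) given here are Ezh2, Ezh1, Eed, Suz12, Rbbp4, Rbbp7, Mtf2, Phf1, Jarid2 and Aebp2. They were taken by name and not by a rule on their values, but with earlier results of these data known. The reason was that the study linked Eed to the expression programme of its knockout progenitors. That link was a similarity between the expression changes of these progenitors and those of hematopoietic stem cells that lack Eed. The text of the study reports no change of Eed itself. All 10 genes were found on the arrays, with 17 of the 27235 probes and among the 20660 genes that could be named. The cells were pre CFU-E, erythroid progenitors that lie before the colony forming unit-erythrocyte (CFU-E) stage. They were sorted from the bone marrow of C57BL/6 mice as Lin- cells that were c-Kit+, Sca1-, endoglin+ and CD150+, with FCgRII/III-/Lo and CD41Lo staining. WT mice and ESAM-KO mice, which lack endothelial cell-selective adhesion molecule in every tissue, had both received 5-FU at 120 mg/kg, and marrow was taken 8 days later. According to the methods the mice were young adults, and the marrow of several was pooled for each genotype. RNA was amplified, labelled with Cy3 and hybridised to 1 Agilent array per genotype. There is thus no replicate and no test, and genotype cannot be told apart from the pool of mice, the sort or the amplification. No untreated mice are among the samples.

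PRC2 places methyl groups on lysine 27 of histone H3, a mark of genes that are kept silent. Ezh2 or its paralog Ezh1 carries the catalytic activity, Eed binds the mark itself and stimulates the enzyme, Suz12 is the scaffold, and Rbbp4 or Rbbp7 binds the histones. Accessory subunits define alternative forms of the complex, with the Polycomb-like proteins Mtf2, Phf1 or Phf19 in one and Jarid2 with Aebp2 in the other. In blood, PRC2 is known to be needed for the maintenance and differentiation of stem and progenitor cells, and Ezh2 is the form of dividing progenitors whereas Ezh1 is retained in cells that divide little.

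The promoters of the catalytic subunits and of Eed and Suz12 are shown because these genes had the largest differences among the core subunits, in opposite directions, or, for Ezh2, none. Each line gives the 250 bases before the transcription start from RefSeq (GRCm38.p6), 5′ to 3′ on the strand of the gene. Capitals mark letters searched on both strands. These were the E2F-type motifs TTTCCCGC, TTTGGCGC and TTTCGCGC, the CCAAT box, the GC box GGGCGG, the GATA motifs AGATAA and TGATAA, the letters GGCGGGA, the ETS motif CCGGAAG, the NRF1 palindrome, the YY1 motif AAGATGGC, the CRE motif TGACGTCA, the CACCC box CCACACCC and the TATA box TATAAA.
Ezh2 promoter, chr6:47595031-47595280, minus strand: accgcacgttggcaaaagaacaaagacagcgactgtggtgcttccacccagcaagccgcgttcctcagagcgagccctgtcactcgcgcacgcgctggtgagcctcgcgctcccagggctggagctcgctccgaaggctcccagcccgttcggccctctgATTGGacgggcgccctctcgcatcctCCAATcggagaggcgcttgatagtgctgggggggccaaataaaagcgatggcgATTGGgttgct
Ezh1 promoter, chr11:101226464-101226713, minus strand: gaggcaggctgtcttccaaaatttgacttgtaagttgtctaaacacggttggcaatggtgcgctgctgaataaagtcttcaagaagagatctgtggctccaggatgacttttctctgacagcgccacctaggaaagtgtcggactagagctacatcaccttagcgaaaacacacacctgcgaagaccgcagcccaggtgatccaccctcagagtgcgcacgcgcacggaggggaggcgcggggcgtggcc
Eed promoter, chr7:89980977-89981226, minus strand: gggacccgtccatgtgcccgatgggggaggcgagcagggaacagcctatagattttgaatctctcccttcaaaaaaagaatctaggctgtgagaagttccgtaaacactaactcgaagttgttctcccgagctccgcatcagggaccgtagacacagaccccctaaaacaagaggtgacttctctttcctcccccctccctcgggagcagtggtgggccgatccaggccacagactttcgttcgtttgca
Suz12 promoter, chr11:79992856-79993105, plus strand: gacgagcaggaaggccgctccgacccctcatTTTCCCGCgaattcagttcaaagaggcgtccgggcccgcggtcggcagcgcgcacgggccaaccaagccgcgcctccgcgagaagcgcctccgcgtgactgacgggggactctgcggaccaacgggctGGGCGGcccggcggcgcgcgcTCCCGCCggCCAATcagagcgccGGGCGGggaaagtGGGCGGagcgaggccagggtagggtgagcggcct

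The Suz12 window held 1 E2F-type motif, and 1.53% of all 32851 promoter windows of the same length held one. It also held 1 CCAAT box, 3 GC boxes and 1 GGCGGGA motif, none of them overlapping another. The Ezh2 window held 3 CCAAT boxes and no other letters searched, whereas the windows of Ezh1 and Eed held none. CCAAT boxes were in 33.8% of all windows, GC boxes in 32.7%, GGCGGGA in 9.75% and TATAAA in 12.4%. The GATA letters, in 16.6% of all windows, and the ETS, NRF1, YY1, CRE and CACCC letters, in 6.91%, 0.782%, 1.56%, 1.55% and 3.20%, were in no window of the 10 subunits. These counts depend on the window. With the 50 bases after the start included, 300 in all, Ezh2 also held an E2F-type motif, which 1.84% of windows of that length did, and Eed held a CCAAT box, which 37.4% did. The Suz12 window had a GC content of 73.6% with 37 CG dinucleotides, and the Eed window 54.4% with 12. A match is a description of letters in this window and not a measured binding site.

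The intensity of a spot is given as the authors deposited it, corrected for background but not scaled between arrays. Each log2 ratio, ESAM-KO over WT, is taken after the 75th percentile of each array, which was 201.4 in WT and 251.1 in ESAM-KO, had been set equal. This lowers each log2 ratio by 0.32 compared with unscaled intensities. The error beside a ratio is that of the scanner software for the 2 spots and does not cover differences between mice, sorts or amplifications. Of the spots, 57.3% in WT and 61.1% in ESAM-KO were well above background. The probe of the targeted gene, Esam, read 27.4 in WT and 20.6 in ESAM-KO, giving a log2 ratio of -0.73 ± 0.31, near the lowest intensities well above background of 12.6 and 13.2. The genotype labels are therefore little checked by these intensities.

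The sort markers and early erythroid genes Kit, Eng, Slamf1, Itga2b, Gata1, Klf1, Epor and Tfrc were all detected well above background on each array, with log2 ratios between -0.80 for Eng and 0.89 for Tfrc. Kit read 3414 in WT and 3326 in ESAM-KO, and Gata1 read 5959 and 5889. Slamf1, which encodes CD150, was only just above background, at 17.8 and 23.0. Fcgr3, on which the sort selected against high levels, read 40.9 and 45.5, and Fcgr2b was well above background on neither array. Ly6a, which encodes Sca1 and was selected against in the sort, read 61.1 in WT and was at least 5.79-fold lower in ESAM-KO, where it was not well above background. The arrays also differed in genes of other cells. As a baseline for these counts, 15.4% of all 14136 genes with a ratio passed 2-fold, 6.99% upward and 8.43% downward in ESAM-KO. Of 14 neutrophil genes measured, 13 were past 2-fold and lower in ESAM-KO, with a list median of -3.32. Among them Ctsg, Ltf, Retnlg and Mpo, of neutrophil granules and their precursors, had log2 ratios of -4.68, -4.20, -3.99 and -3.82. The summed level of the list, in multiples of the 75th percentile, was 683 in WT and 367 in ESAM-KO, most of it from Itgam, which encodes the Mac1 antigen of the lineage gate. Itgam read 76375 and 82076 at its brightest probe and was within 2-fold there, at -0.21. Its next probe read 270 and 116, past 2-fold lower at -1.54, and the dimmest read 81.7 and 69.8, at -0.55. The size of the Itgam difference thus depended on the probe, and its part of the summed level rests on the brightest probe. Of 15 late erythroid genes, 10 were lower and 0 higher by more than 2-fold, with a median of -1.61 and summed levels of 809 and 289. Slc4a1, Hbb-bs and Trim10 had log2 ratios of -2.87, -2.52 and -2.31, and Epb42, above background in WT only, was at least 12.9-fold lower. In these RNA pools, fewer cells of a type and less RNA per cell cannot be told apart.

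Ezh2, the catalytic subunit of dividing cells, was nearly equal in the 2 samples. Its only probe (NM_007971) read 931 in WT and 1150 in ESAM-KO, giving a log2 ratio of -0.01 ± 0.20. Ezh1, the paralog with weaker methyltransferase activity, was lower in ESAM-KO. Its brightest probe (NM_007970) read 942 in WT and 595 in ESAM-KO, giving a log2 ratio of -0.98 ± 0.20, or 1.97-fold lower, just inside the 2-fold criterion of the study. The second probe of the same transcript read 356 and 341, a log2 ratio of -0.38 ± 0.20, and the third, at 12.96 and 6.54, was above background on neither. Both measured Ezh1 probes thus lay below 0, by different amounts. Of all 14136 genes with a ratio, 8.79% had a lower one than Ezh1.

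The difference between the log2 ratios of Ezh1 and Ezh2 does not depend on how the arrays are scaled by a constant. It was -0.97 ± 0.29 with the brightest probe of Ezh1 and -0.37 with its second probe. Ezh1 was therefore lower relative to Ezh2 in ESAM-KO than in WT with either probe, and the size of the difference depended on the probe. The levels of the paralogs themselves cannot be set against each other, since each probe has its own efficiency. Among other pairs, the log2 ratio of Suz12 exceeded that of Ezh1 by 1.57 ± 0.29, or by 0.97 with the second Ezh1 probe, and that of Eed exceeded that of Ezh2 by 0.49 ± 0.29.

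**Figure D1:**
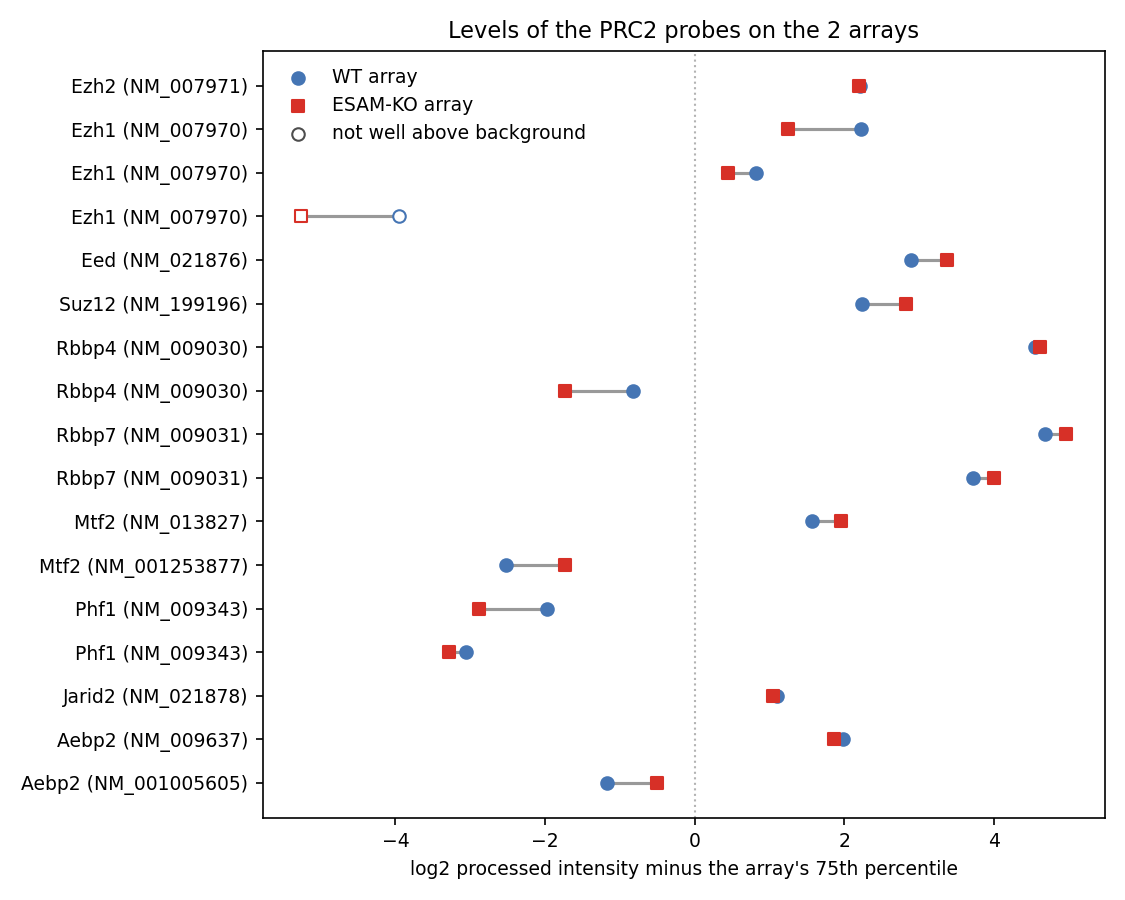
Levels of the 17 PRC2 probes on the 2 arrays. The x axis is the log2 processed intensity minus the 75th percentile of the array, circles are the WT array and squares the ESAM-KO array, each a single value, and open symbols were not well above background. The symbols of Ezh2 and Jarid2 nearly coincide, those of Eed and Suz12 lie further right in ESAM-KO and those of Ezh1 further left, and levels are comparable within a row only.

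Eed and Suz12, the noncatalytic subunits without which the enzyme is inactive, were both higher in ESAM-KO. Eed, with whose knockout the study compared its own, had 1 probe (NM_021876), which read 1497 in WT and 2603 in ESAM-KO. Its log2 ratio was 0.48 ± 0.20, or 1.39-fold higher. Suz12, the scaffold of the complex, also had 1 probe (NM_199196), with 948 in WT and 1781 in ESAM-KO, giving a log2 ratio of 0.59 ± 0.20, or 1.51-fold higher. Suz12 was the subunit with the highest ratio, yet 15.4% of all genes had a higher one, and 19.3% had a higher one than Eed. Neither was past 2-fold, and with 1 probe each there is no second measurement on the array.

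Rbbp4 and Rbbp7 are WD-repeat histone chaperones that are also subunits of deacetylase, remodelling and chromatin assembly complexes. The brightest of the PRC2 probes were theirs, apart from a dim probe of Rbbp4. Rbbp7 (NM_009031) read 5162 in WT and 7855 in ESAM-KO at one probe and 2639 and 4002 at the other. The log2 ratios were 0.29 ± 0.20 and 0.28 ± 0.20, the closest agreement of 2 probes among the subunits. Rbbp4 (NM_009030) read 4706 in WT and 6151 in ESAM-KO at its brightest probe, a log2 ratio of 0.07 ± 0.20. Its dimmer probe went the other way, with 114 and 75.8 and a log2 ratio of -0.91 ± 0.22. The direction of Rbbp4 is therefore not settled by these data. Rbbp7 lay above Rbbp4 by 0.22 ± 0.29 at the brightest probes, which is within the scanner software's error.

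**Figure D2:**
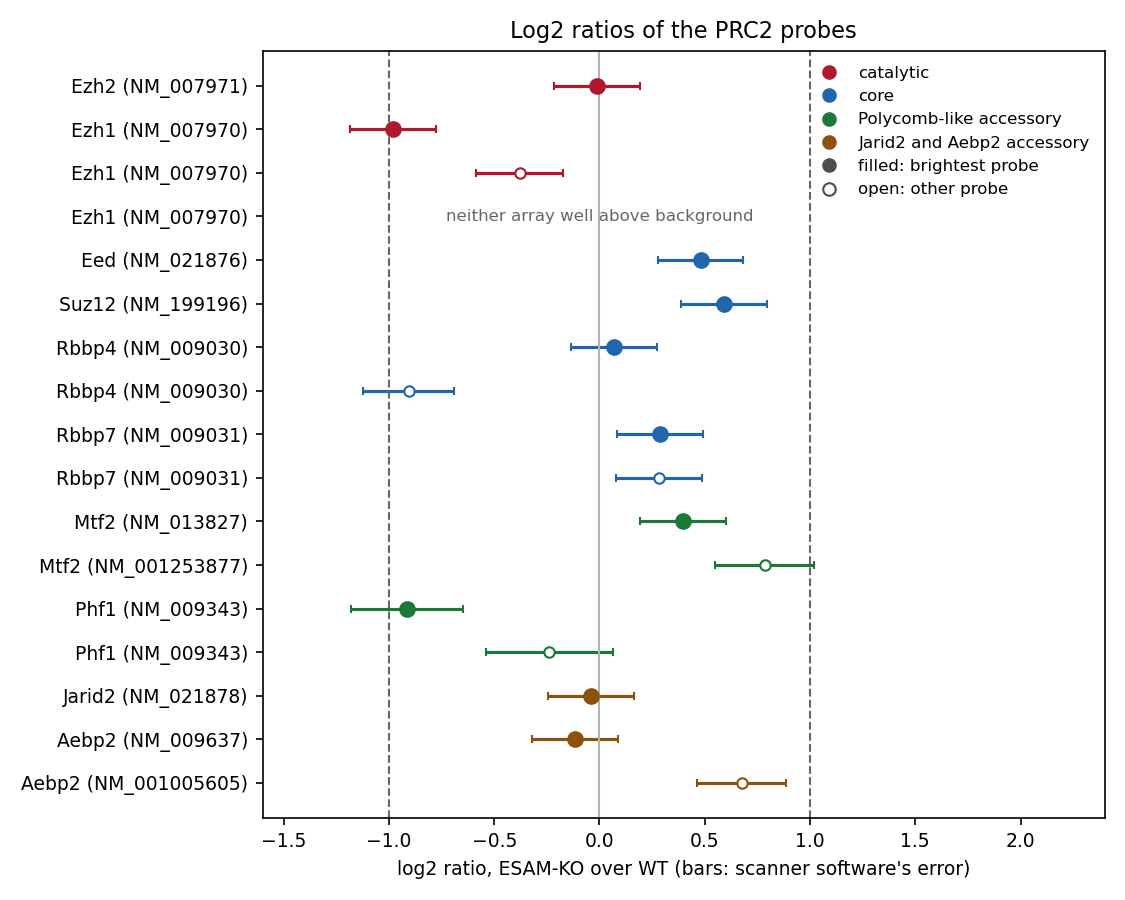
Log2 ratios, ESAM-KO over WT, of the PRC2 probes, with the scanner software's error as bars, the brightest probe of a gene as a filled circle and other probes as open circles. Colours give the role in the complex, and dashed lines mark 2-fold. All 16 measured probes lie inside the dashed lines, and the probes of Rbbp4 and of Aebp2 lie on opposite sides of 0.

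The Polycomb-like subunits, which bind CpG-rich DNA and recruit the complex to it, differed in direction. Mtf2 was higher in ESAM-KO at both of its probes. The brighter (NM_013827) read 595 in WT and 977 in ESAM-KO, giving a log2 ratio of 0.40 ± 0.20. The dimmer, listed under another accession of the gene (NM_001253877), read 35.2 and 75.6, a log2 ratio of 0.78 ± 0.24. Phf1 was dim and lower in ESAM-KO, with 51.4 in WT and 34.0 in ESAM-KO at the brighter probe, a log2 ratio of -0.91 ± 0.27, or 1.88-fold lower. Its other probe of the same transcript (NM_009343) read 24.3 and 25.7, a log2 ratio of -0.24 ± 0.30, within its error of 0. Phf19, the third Polycomb-like gene and not one of the 10, read 40.6 and 29.5, a log2 ratio of -0.78. The log2 ratio of Mtf2 exceeded that of Phf1 by 1.31 ± 0.33 at the brightest probes and by between 0.64 and 1.70 over the 4 pairings of their probes. It exceeded that of Phf19 by 1.17 ± 0.36.

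Jarid2 and Aebp2, the accessory subunits of the other form, were close to equal at their brightest probes. Jarid2, a jumonji-family protein without demethylase activity that stimulates the enzyme, had 1 probe (NM_021878) with 430 in WT and 520 in ESAM-KO, giving a log2 ratio of -0.04 ± 0.20. Aebp2, a zinc finger protein, read 797 and 916 at the brighter probe (NM_009637), a log2 ratio of -0.12 ± 0.20. Its dimmer probe, listed under another accession (NM_001005605), read 89.1 and 177, a log2 ratio of 0.67 ± 0.21. The 2 probes of Aebp2 were thus on opposite sides of 0. Probe sequences were not used here, so which isoforms each probe of Aebp2 or Mtf2 reads is not known.

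No subunit passed the study's criterion of a more than 2-fold difference, in either direction. Among all genes with a ratio, 15.4% passed it, 6.99% higher and 8.43% lower in ESAM-KO. At 1.5-fold, Suz12 was higher and Ezh1 and Phf1 were lower, 3 of 10 subunits, where 33.2% of all genes passed, 15.6% higher and 17.6% lower. The median log2 ratio of the 10 subunits was 0.03, with 5 above and 5 below 0, and the median of all genes was 0.00056. The middle of the distribution of all genes, between its quartiles, ran from -0.40 to 0.37. Of the subunits, 6 differed by more than the scanner software's error and 4, namely Ezh2, Rbbp4, Jarid2 and Aebp2, did not, and 66.5% of all genes above background on both arrays differed by more than theirs.

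The share of genes past 2-fold also varied with signal, here in 4 quartiles of the genes well above background on both arrays. It was 2.63% in quartile 4, the brightest, where Eed, Ezh2, Suz12, Rbbp4 and Rbbp7 lay. In quartile 3, with Ezh1, Mtf2, Jarid2 and Aebp2, it was 10.8%, and in quartile 1, the dimmest, with Phf1, it was 17.9%. The share past 1.5-fold, as Suz12, Ezh1 and Phf1 were, was 13.8% in quartile 4, 29.1% in quartile 3 and 36.8% in quartile 1. The median size of the log2 ratio was 0.26 in quartile 4, with Eed, Suz12 and Rbbp7 above it and Ezh2 and Rbbp4 below, and 0.36 in quartile 3, with Ezh1 and Mtf2 above it and Jarid2 and Aebp2 below.

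**Figure D3:**
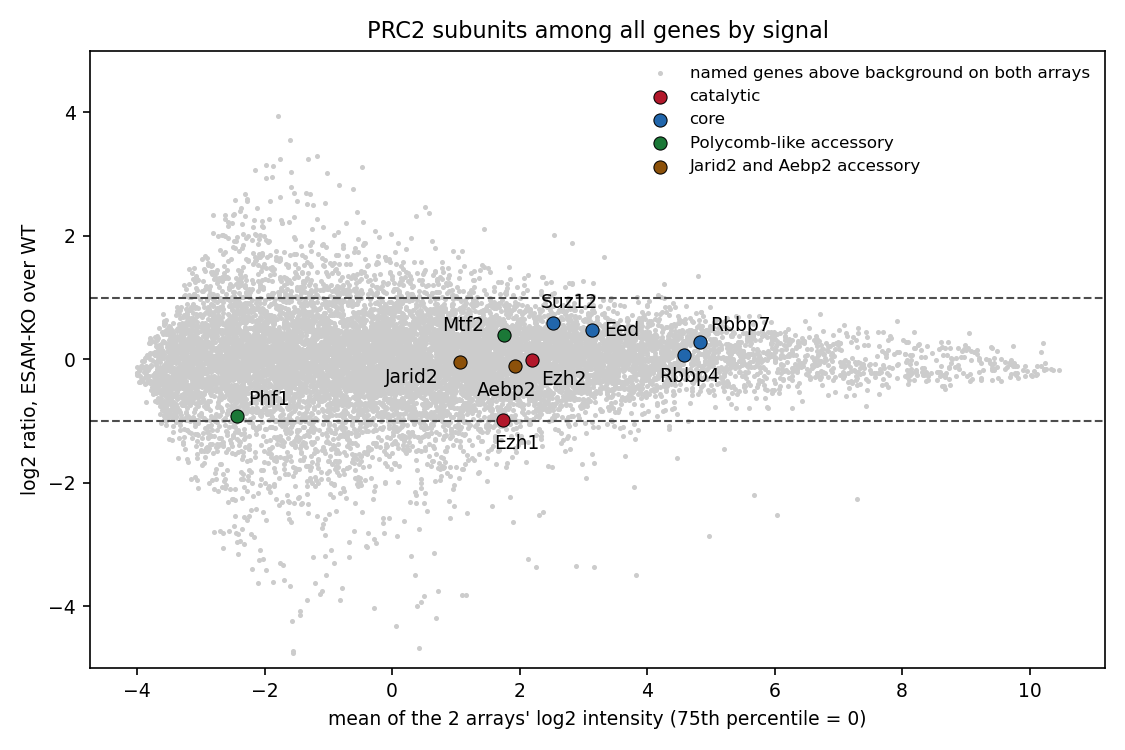
Log2 ratio, ESAM-KO over WT, against the mean log2 intensity of the 2 arrays, for all named genes well above background on both (grey) and the 10 PRC2 subunits (coloured by role). Dashed lines mark 2-fold. The spread of all genes narrows toward bright signal, where 2.63% are past 2-fold, and Ezh1 at -0.98 and Phf1 at -0.91 lie nearest to the lower line.

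Agreement between probes sets a further limit. For 6 subunits 2 probes passed the background criterion in WT and in ESAM-KO, and they lay on the same side of 0 for 4 of them, Ezh1, Rbbp7, Mtf2 and Phf1. The log2 ratios of the 2 probes differed by between 0.0046 for Rbbp7 and 0.98 for Rbbp4, with a median of 0.64. Over all 3056 genes with at least 2 such probes, the median difference was 0.41 and 62.0% were on the same side of 0. The log2 ratios of spots of one probe had a median SD of 0.11 over 213 probes printed at least 8 times and well above background, so that probes of one gene differed by more than the printing of a spot did.

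Directions also depended on the scaling between arrays for some of the subunits. Eed, Suz12, Rbbp7 and Mtf2 were above 0 and Ezh1 and Phf1 below 0 in the main analysis and under all 13 other scalings, filters and choices of probe. Several of these could not change a direction. The filters, keeping outlier spots and ranking probes by linear signal left every subunit at its main value. The mean of probes cannot move Eed or Suz12, which have 1 probe each. No alternative used the dimmer Phf1 probe alone, which was at 0.08 without scaling. Eed ranged from 0.35 to 0.80, Suz12 from 0.46 to 0.91, and Mtf2 from 0.27 to 0.72. Ezh1 ranged from -1.11 to -0.66 and was past 2-fold with median scaling, at -1.11, and with cyclic loess, at -1.01. Phf1 ranged from -1.04 to -0.42 and was past 2-fold with median scaling, at -1.04, and with quantile normalization, at -1.03. The share of all genes past 2-fold was 16.1% with median scaling, 15.5% with quantile normalization and 15.4% with cyclic loess. No subunit was past 2-fold where that share was 17.8% (no scaling), 15.3% (75th percentile of probes above background on both arrays), 5.11% (normexp), 19.9% (no filter on dim probes), 12.6% (above background on both arrays), 14.6% (mean of probes) or 15.7% (probes ranked by linear signal). Ezh2, Jarid2 and Aebp2 were below 0 in the main analysis and above 0 without scaling, at 0.30, 0.28 and 0.20. Without scaling the median of all genes was 0.31, so that these subunits then lay near it. Ezh2 was also above 0 with quantile normalization, at 0.02, and with the 75th percentile of probes above background on both arrays, at 0.0080. Jarid2 was at 0.04 with normexp, and Aebp2 was at 0.28 with the mean of probes. Rbbp4 was below 0 with each array set to its median, at -0.06, and with the mean of probes, at -0.42.

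**Figure D4:**
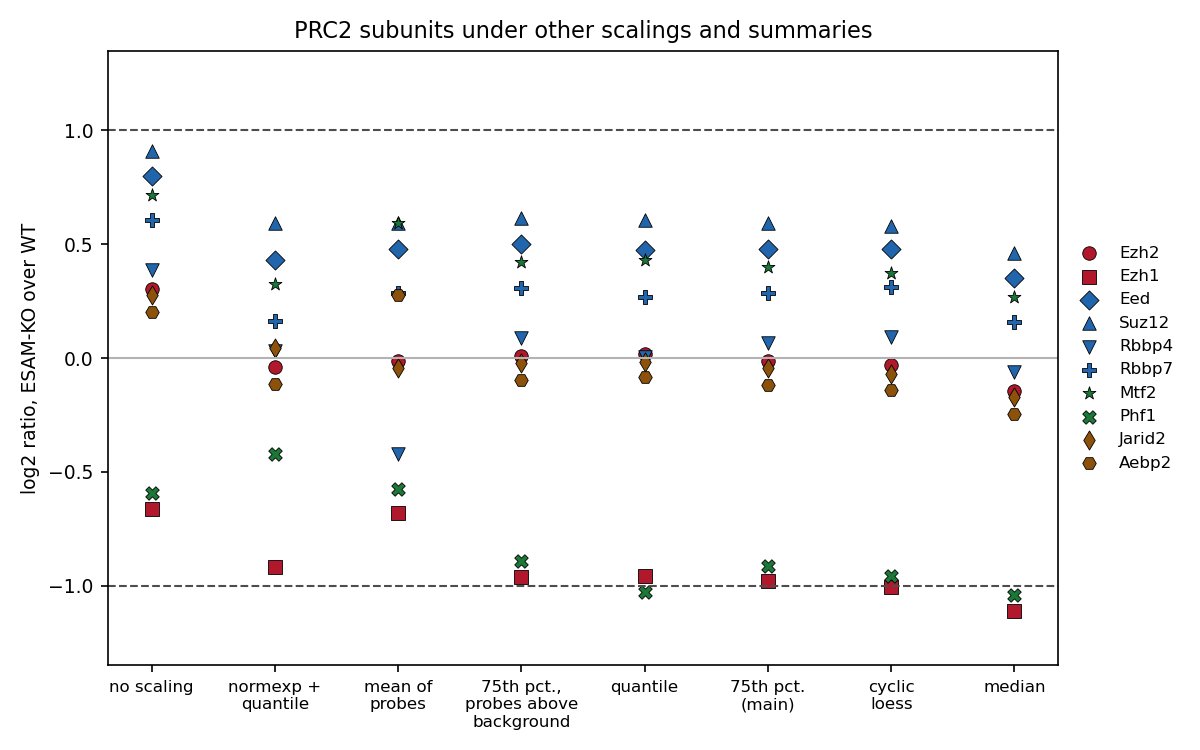
Log2 ratios, ESAM-KO over WT, of the 10 PRC2 subunits under 8 ways of scaling the arrays or summarising probes, 1 column each. Symbols are genes, colours their role, and dashed lines mark 2-fold. Suz12 and Eed are above 0 and Ezh1 and Phf1 below 0 in every column, and without scaling every value lies above its value with the 75th percentile.

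The counts of the next 2 lists are to be read beside the 15.4% of all genes past 2-fold, 6.99% higher and 8.43% lower in ESAM-KO. Of 5 further partners of PRC2, 1 passed 2-fold. Epop, which links PRC2 to elongin, read 32.1 in WT and 127 in ESAM-KO, giving a log2 ratio of 1.66 ± 0.25. Lcor, Lcorl and Ezhip were between -0.05 and 0.05 at their brightest probes. The other probes of Lcorl were at 0.21, 0.40 and -0.68, on both sides of 0. Lcor was dim, at 17.6 in WT and 22.7 in ESAM-KO. The list of PRC1, the complex that ubiquitinates histone H2A and includes readers of the PRC2 mark, had 24 members with a ratio, of which 1 was higher, 0 were lower and 23 were within 2-fold. The median was -0.16, with 15 below 0, a number that was 11 without scaling. L3mbtl2, of a noncanonical form, was the member past 2-fold, with 59.2 in WT and 163 in ESAM-KO and a log2 ratio of 1.14 ± 0.22.

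The enzymes that remove or oppose the marks are to be read beside the 15.4% of all genes past 2-fold. The H3K27 demethylases Kdm6a and Kdm6b had log2 ratios of 0.41 and -0.43. Of 8 measured members of the PR-DUB complex, which removes ubiquitin from H2A, none passed 2-fold, the median was 0.17, and the extremes were Ogt at 0.51 and Hcfc1 at -0.34. Of 20 trithorax-group and H3K36-related genes, 1 was higher and 1 lower, with a median of 0.05. Nsd2, an H3K36 methyltransferase, had 4 probes with log2 ratios of 1.22, 0.0016, 1.57 and 3.22, from the brightest to the dimmest. Kdm5b, an H3K4 demethylase, read 880 in WT and 377 in ESAM-KO, giving a log2 ratio of -1.54, whereas its other probe was at 0.49. Values of both genes therefore differ between probes by more than the scanner software's error.

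**Figure D5:**
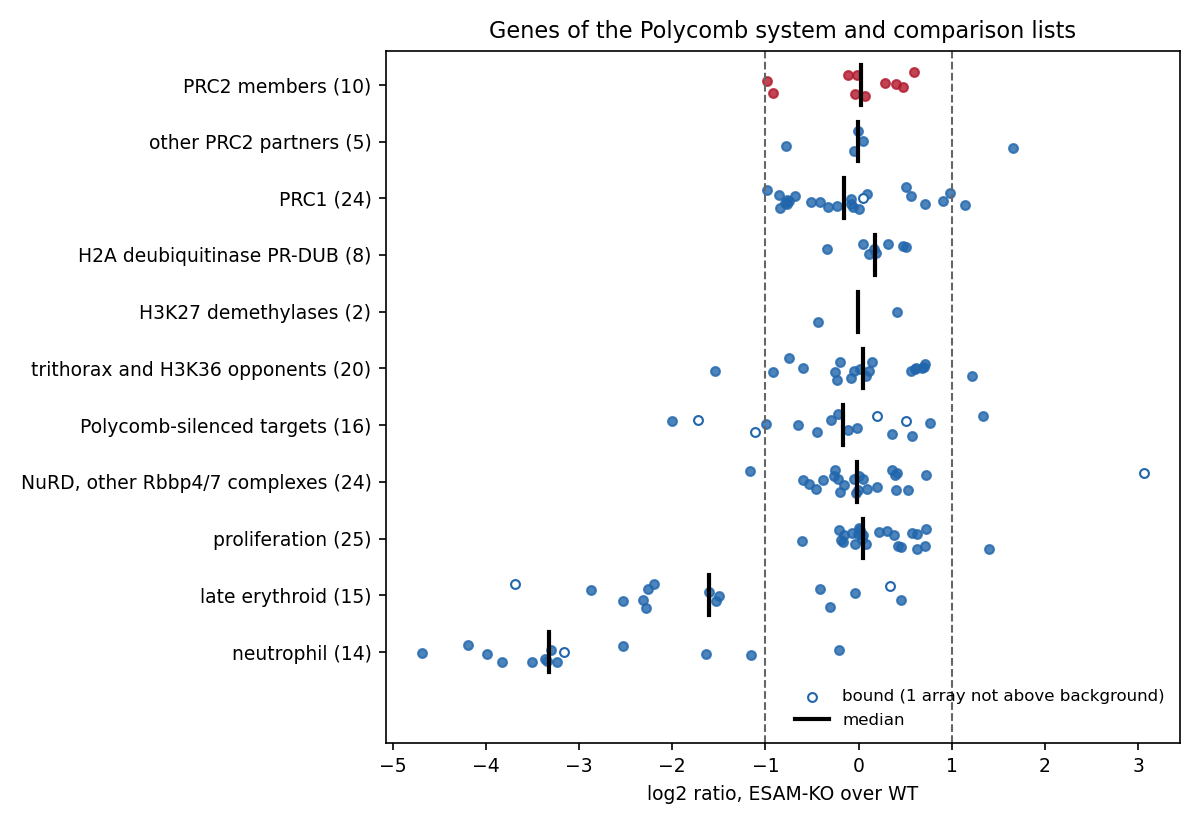
Log2 ratios, ESAM-KO over WT, of the genes of each list, 1 point per gene with jitter along the y axis, with the number of genes with a ratio in brackets and black bars for medians. Open points are bounds, and dashed lines mark 2-fold. The PRC2 subunits (red) lie within 2-fold around a median of 0.03, and the late erythroid and neutrophil lists lie to the left, with medians of -1.61 and -3.32.

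A list of 35 genes that Polycomb keeps silent in other settings, such as Hox genes and regulators of other lineages, was largely dark on these arrays. For 19 of them neither array was well above background, among them Gata4, Sox17, Pax6, Igf2, Cdx2 and Hoxb4. Among all 20660 named genes, 14136 had a ratio. Of the 16 listed genes with a ratio, 1 passed 2-fold upward and 3 downward in ESAM-KO, and the median was -0.17. The shares over all 14136 genes were 6.99% upward and 8.43% downward. Hoxa10, a homeobox gene of immature blood cells, read 39.2 in WT and 123 in ESAM-KO, giving a log2 ratio of 1.34. Igf2bp2, an RNA-binding protein, read 101 and 31.5, a log2 ratio of -2.00, and at its other probe, above background in WT only, the bound was -3.21. Gata6 and the B cell factor Ebf1 were above background in WT only. Gata6 was lower by at least 2.17-fold and Ebf1 by at least 3.29-fold. Cdkn2a, a cell cycle inhibitor and classical PRC2 target, was dim, with 19.7 in WT and 18.03 in ESAM-KO and a log2 ratio of -0.45 ± 0.37. Most of the list thus gave no ratio, and those that did pointed both ways.

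Rbbp4 and Rbbp7 also belong to NuRD, Sin3, chromatin assembly and cell cycle repressor complexes, and 24 of their other partners had a ratio. Of these, 22 were within 2-fold, 1 was higher and 1 lower, and the median was -0.02. Of all genes with a ratio, 15.4% were past 2-fold. Sin3a, the scaffold of a deacetylase complex, read 788 in WT and 438 in ESAM-KO, giving a log2 ratio of -1.17, but -0.85 without scaling. Sap18, another subunit of that complex, was above background in ESAM-KO only, at 131, and was at least 8.34-fold higher there. The deacetylases Hdac1 and Hdac2 were at 0.41 and 0.20.

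Because Ezh2, Eed and Suz12 are known to be expressed most in dividing cells, 25 proliferation genes were set beside them. Their median log2 ratio was 0.05, with 1 higher and 0 lower by more than 2-fold. Of all genes with a ratio, 15.4% were past 2-fold. In the brightest quartile of genes above background on both arrays, 2.63% were. Mki67 had 0.02, Top2a -0.17 and Pcna 0.63, and Tyms, the target of 5-FU, was the one past 2-fold, at 1.40 with 46.8 in WT and 154 in ESAM-KO. Of the 25 genes, 17 were above 0, a number that was 24 without scaling.

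Genes of other cell types also differed between the arrays, and their part in the values of the subunits was not tested. The lineage antibodies named in the methods (Mac1, Gr1, CD3e, CD45R/B220 and Ter119) select against myeloid, T, B and late erythroid cells. The counts below are to be read beside the 15.4% of all genes past 2-fold, 6.99% higher and 8.43% lower in ESAM-KO. Prss34, Ms4a2, Igll1, Ebf1, Cd3d, Ppbp, Gp9, Gp1ba and Tek were well above background on 1 array only. Their differences are therefore bounds. Of 6 measured genes of mast cells, basophils and eosinophils, Epx, Prg2 and Prss34 were lower and Ms4a2 higher by more than 2-fold, with summed levels of 15.7 in WT and 8.63 in ESAM-KO, and Cpa3, Mcpt8, Fcer1a and Cma1 were not well above background on either array. Of 7 B cell genes, Igll1, Vpreb1, Cd79b and Ebf1 were lower, with summed levels of 2.91 and 0.928, and Ms4a1 was not well above background. Of 6 macrophage genes, Lyz2 and Vcam1 were lower and C1qa higher, with summed levels of 34.8 and 30.4, and C1qc, Mertk, Cd163 and Mrc1 were not well above background. Most of the macrophage sum came from Csf1r, which read 6554 in WT and 7310 in ESAM-KO at its brightest probe. Its log2 ratio was -0.16 there and 0.66 at a dimmer probe. Of 5 T and NK cell genes, Cd3d was lower, with summed levels of 12.3 and 14.3, and Cd3g, Cd8a, Klrb1c and Ncr1 were not well above background. Of 10 megakaryocyte genes, Treml1, Ppbp and Gp9 were lower and Vwf and Gp1ba higher, with summed levels of 12.4 on each array. Of 6 endothelial genes, Pecam1 was lower and Tek higher, with summed levels of 20.3 and 21.4, and Cdh5 and Tie1 were not well above background. The 12 housekeeping genes were all within 2-fold, with a median of 0.08.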

How the data were processed

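Pre CFU-E RNA was hybridised to 1 Agilent SurePrint G3 mouse array per genotype. The authors deposited the intensity of each spot from Agilent Feature Extraction 10.10.1.1, subtracted for background and detrended within the array, and a series table that held the same values within 0.497%. From each log2 intensity the 75th percentile of that array was subtracted. Control spots and 254 outlier spots were left out, and spots of a probe were averaged. A probe needed over 50% of its spots well above background. Where only 1 array met this, the ratio is a bound against the dim array, at its own signal or, if higher, the lowest one well above background there. With 1 array per genotype no test was made, and the number of arrays limits the precision.

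Transcript accessions were matched without versions to RefSeq (GRCm38.p6), which named 48.9% of the probes, and each gene took the probe of highest mean log2 signal. Ranking probes by linear signal was also looked at, and the log2 ranking was kept with the counts of both known. The members and the lists were chosen with earlier results of these data known. The text names all 10 subunits with all their probes, Esam, the sort markers and early erythroid genes, and from each other list at most 4 genes past 2-fold in each direction by size, or the extremes where none passed, except that those of the housekeeping list are not reported here. Mki67, Pcna and Top2a were named too. Genes of other cell types past 2-fold were named by the same rule. Some genes were given outside this rule and were chosen after their values were seen. These were Phf19, Lcor, Lcorl, Ezhip, Cdkn2a, Itgam, Csf1r, Hdac1 and Hdac2 and those named only as not above background. All pairs compared other than Ezh1 and Ezh2 were also chosen after their values were seen. Promoter sequences were matched by symbol for all 10 subunits and run along the gene's strand, which was checked by the place of TATA motifs.

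The motifs were a general set, and the windows end at the start site because transcribed sequence is not printed. The counting was tested on simulated arrays, in which 200 of 200 genes changed 4-fold were recovered among 20660 genes and 20 unchanged genes were called. Both simulated arrays were made from the WT intensities with noise of the scanner software's error only, and the changed genes were not dim. The simulation thus checks the counting, and not differences between mice, sorts or amplifications. Alternatives were other scalings, normexp, the series table, filters, the mean of probes and other thresholds. R 4.3.3 with limma 3.58.1, Python 3.11.15, pandas 2.3.3, numpy 2.4.6 and matplotlib 3.10.9 were used.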

Additional observations from a re-analysis of the deposited data

How the results depend on the processing

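The number of subunits past 2-fold, 0, was 2 with each array set to its median (Ezh1 and Phf1), 1 with quantile normalization (Phf1), 1 with cyclic loess (Ezh1) and 3 at 1.5-fold. It stayed 0 under the remaining alternatives. The median of the subunits, 0.03, was 0.35 without scaling, where the median of all genes was 0.31. That median was -0.13 with each array set to its median and -0.14 with no filter on dim probes. Ezh1 minus Ezh2, -0.97, was -0.67 with the mean of probes and stayed within the scanner error of -0.97 under the others. Esam, -0.73, was -0.41 without scaling and -0.26 with normexp and quantile normalization. The genes past 2-fold, 2179, were 722 with normexp and quantile normalization, 4108 with no filter on dim probes, 4694 at 1.5-fold and 821 at 3-fold. Of those past 2-fold, 54.7% were lower in ESAM-KO, a share that was 28.8% without scaling, 66.8% with each array set to its median and 67.3% with normexp and quantile normalization. Single subunits gave 130 values under the alternatives, of which 115 stayed within the scanner error and 15 did not, and the other lists gave 234 medians, of which 214 and 20. The 115 include the filters, the outlier spots and the linear rankings, under which no subunit's value changed. Ranking probes by linear signal, chosen after seeing the data, gave 2224 genes past 2-fold with scaling and 2218 without, and moved no subunit. The alternative without saturated probes was not run, as 0 spots were saturated. For 1 probe of Ezh1 and 19 of the 35 silenced genes, signal over background allowed no ratio. No paired analysis was possible because there was a single array for WT and for ESAM-KO.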
